A study of Mus musculus with 36 samples.

Results

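The genes described here encode the autophagy machinery of the mouse, 49 genes taken by symbol from a table of read counts. All 49 were among the 12795 genes measured, so none was lost to a filter on low counts. They were divided by role into 5 initiation genes, 7 nucleation genes, 5 genes of membrane supply and lipid transfer, 7 conjugation enzymes, 4 ATG4 proteases, 5 ATG8 family members, 6 cargo receptors and 10 fusion genes. The study sorted macrophages by flow cytometry from mouse hearts into a fraction with the chemokine receptor CCR2 (CCR2pos) and a fraction without it (CCR2neg). It asked which transcripts respond to TFEB, a transcription factor of lysosomal and autophagy genes, and used 36 RNA sequencing libraries in 8 groups.

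Per the labels, the mice carried a Cx3cr1-er-Cre allele and a Td-Tomato-LoxSTOP reporter, with a TFEB-LoxP-STOP cassette (TFEBTG) or without one (TFEBwt). Tamoxifen was fed for 7 days, the heart was then made ischemic for 90 minutes, and cells were sorted 7 days later. In each fraction there were 4 libraries of TFEBTG cells labelled mac-TFEB, 4 of TFEBTG cells labelled Cre-neg, 5 of TFEBwt cells labelled CX3CR1-Cre and 5 of TFEBwt cells labelled Cre-neg. Cre was driven by the Cx3cr1 promoter, and the sources used here do not give what set the Cre-neg cells apart from the mac-TFEB and CX3CR1-Cre cells, which are called Cre cells here. No label ties a library to an animal of its own, so p-values measure the spread between libraries, which may be technical. In such bulk samples, fewer cells of a type and less RNA per cell cannot be told apart.

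Autophagy encloses cytoplasm in a double membrane, the autophagosome, which fuses with a lysosome where its content is broken down. The ULK1 kinase complex starts the process, a class III PI3-kinase complex marks the membrane, ATG9 and ATG2 supply lipid, and a pair of ubiquitin-like conjugation systems attaches ATG8 proteins (the LC3 and GABARAP families) to it. Receptors tie cargo to ATG8 proteins, and SNAREs, the HOPS complex and tethers carry out fusion. TFEB binds E-box sequences (the CLEAR element), and Sqstm1, Map1lc3b, Uvrag, Wipi1, Vps11 and Vps18 have been described as its targets in other cells.

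Since TFEB binds E-boxes, the promoter windows of the members were searched for the letters CACGTG and TCACGTGA, each of which reads the same on both strands. The longer motif contains the shorter one. RefSeq windows of build GRCm38.p6, from 250 bases before to 50 bases after a gene start, were at hand for 39 of the 49 members, in 44 windows. CACGTG occurred in 6 of the 44 windows (13.6%) against 7.15% of 32851 windows of all genes, and the 6 lay at Atg3, Atg5, Atg7, Atg14, Rubcn and Vps33a. TCACGTGA occurred at Atg3 and Vps33a (4.55% of member windows, 0.974% of all). A match describes the letters only and is no evidence of binding. The windows with CACGTG of Atg7, Rubcn and Atg14 lay 27999, 9400 and 2215 bases downstream of the annotated start, so 3 of the 6 are not at the gene's start. Among the 38 windows within 1000 bases of the annotated start, only those of Atg3, Atg5 and Vps33a held CACGTG. These 3 of 38 windows are near the share over windows of all genes (7.15%), which were not limited by distance. The higher share of 13.6% thus rests on the windows of Atg7, Rubcn and Atg14.

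The 150 bases before the RefSeq start are shown for the 3 members with CACGTG in this stretch and a window at their annotated start, with CACGTG in capitals. The Atg3 stretch is chr16:45158679-45158828 on the plus strand, that of Atg5 chr10:44268189-44268338 on the plus strand and that of Vps33a chr5:123573016-123573165 on the minus strand.
Atg3: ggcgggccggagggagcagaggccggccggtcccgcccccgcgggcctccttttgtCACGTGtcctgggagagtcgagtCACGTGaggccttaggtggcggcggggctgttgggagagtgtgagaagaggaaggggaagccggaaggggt
Atg5: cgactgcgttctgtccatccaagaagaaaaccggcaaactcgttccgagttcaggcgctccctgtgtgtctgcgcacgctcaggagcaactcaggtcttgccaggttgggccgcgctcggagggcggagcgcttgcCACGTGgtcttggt
Vps33a: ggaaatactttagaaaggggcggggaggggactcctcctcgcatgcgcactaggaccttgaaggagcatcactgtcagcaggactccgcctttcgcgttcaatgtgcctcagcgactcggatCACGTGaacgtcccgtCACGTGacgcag
Atg3 has 2 copies, 94 and 71 bases before the start, Vps33a has 2, at 28 and 12 bases, and Atg5 has 1, at 14 bases. None of these 3 genes passed the test with TFEB, as their values below show. Over the 6 members with CACGTG, those 3 included, the median log2 fold change with TFEB in CCR2neg cells was -0.04, against 0.04 over the 33 matched members without it. In CCR2pos cells these medians were -0.04 and -0.0043.

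Libraries held 13797484 to 32645783 counts. Tfeb, the targeted gene, stood at 335, 249.98, 98.1 and 67.4 CPM (read counts scaled to library size) in the CCR2neg mac-TFEB libraries and at 7.78, 8.76, 8.86, 7.48 and 6.66 in CCR2neg CX3CR1-Cre. It stood at 36.5, 18.6, 16.9 and 12.4 in CCR2neg TFEBTG Cre-neg libraries, above every CX3CR1-Cre library of the fraction. In CCR2pos cells it stood at 51, 50.5, 34.6 and 19.1 CPM in TFEBTG and 6.05, 6.3, 5.66, 7.17 and 5.1 in TFEBwt Cre-neg libraries. All 12 macrophage markers were measured, with summed levels of 34818 to 50026 CPM. Markers of other cell types that were not among the genes measured included Myh7, Ryr2, Ly6g, Retnlg, Camp, Ngp and Pax5. B cell markers summed to 423 to 1089 CPM. Fibroblast markers summed to 53.1 to 647 CPM, highest in CCR2neg TFEBwt Cre-neg library 4. Endothelial markers reached 216 CPM and T and NK cell markers 172 CPM. Cardiomyocyte markers summed to 20.2 to 493 CPM. Their highest sum was in CCR2neg TFEBTG Cre-neg library 1, which with CCR2neg mac-TFEB library 1 and CCR2neg CX3CR1-Cre library 3 correlated least with its own group (median r of 0.908, 0.931 and 0.939). These 3 libraries stand apart, and called members are given with and without them.

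Levels were compared between members as CPM per kb of exon, with the exons of all annotated transcripts of a gene joined. That length can exceed the length of the transcript expressed, so the order of the members depends on the annotation. Gabarap and Map1lc3b, for example, had similar medians of 599 and 581 CPM but joined exon lengths of 1844 and 7517 bases. Gabarap, an ATG8 protein, had the highest median over the 36 libraries, 325 CPM per kb (range 260.5 to 399.9). Vamp8, a lysosomal SNARE, followed at 169.7 (143 to 225), and Sqstm1, the cargo receptor p62, at 155 (105 to 214). Gabarap lay above both in every library, while the ranges of Vamp8 and Sqstm1 overlapped. Map1lc3b, the LC3 protein most used as an autophagosome marker, had 77.3 CPM per kb (60.4 to 91.5). At the low end stood the protease Atg4d at 0.932, the tether Epg5 at 0.843 and the lipid transfer protein Atg2b at 0.77 CPM per kb, with overlapping ranges. The median spread between libraries of a group was an SD of 0.23 on the log2 scale over the members and 0.31 over all genes. The median level was also higher over the members, 34.2 CPM against 13.9 over all genes, and the spreads were not compared at equal level.

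**Figure D1:**
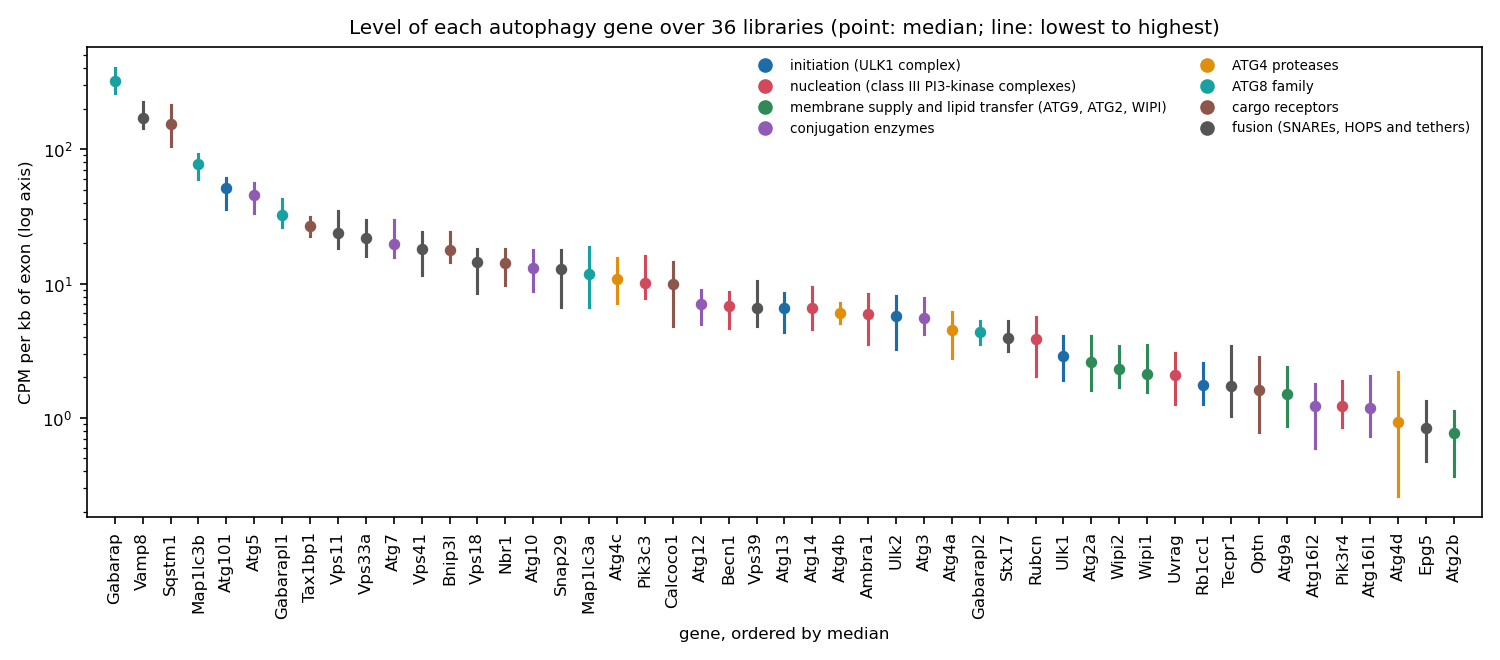
Level of each of the 49 autophagy genes in CPM per kb of exon (log axis) over 36 libraries, with the median as a point and the lowest to highest library as a line, coloured by role. The exon length joins all annotated transcripts of a gene. Gabarap lies highest at 325 and Atg2b lowest at 0.77 CPM per kb.

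With TFEB overexpression, 1 of the 49 autophagy genes was called as higher in CCR2neg macrophages and none was called in CCR2pos macrophages. These comparisons set mac-TFEB against CX3CR1-Cre (log2 fold changes are given ± SE, and called means an adjusted p under 0.05 by edgeR's quasi-likelihood test with Benjamini-Hochberg adjustment over all genes). The called gene was Atg7, which encodes the E1-like enzyme that activates both ATG12 and the ATG8 proteins. In CCR2neg cells 1 of 49 members was called against 1.38% of all genes. At an unadjusted p under 0.05 there were 10 members, 6 higher and 4 lower, or 20.4% against 14.6% of all genes. With limma-voom and quality weights 9 members were called in CCR2neg cells, 5 higher and 4 lower, against 10.6% of all genes. A term for Xist, by whose level the libraries also differed and which the main fit lacks, gave 3 called members (Atg101, Atg7 and Vps18) against 3.35% of all genes. Xist was at or below 10 CPM in CCR2neg mac-TFEB libraries 1 and 2 and, among the CX3CR1-Cre libraries, in library 1. It was thus not balanced between the groups. The same label numbers were low in the CCR2neg Cre-neg libraries of TFEBTG and TFEBwt. In CCR2pos cells edgeR called 0 members against 0.0391% of all genes, with 1 at an unadjusted p under 0.05 (2.04%, all genes 4.62%), and DESeq2 and limma-voom also called 0. The members' median log2 fold change was 0.04 in CCR2neg and -0.02 in CCR2pos cells, beside 0.01 and -0.0042 over all genes.

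The intervals bound how large a change could have been missed. In CCR2neg cells the 95% interval lay within a 2-fold change either way for 47 of the 49 members, all but Atg4d and Optn, and within 1.5-fold for 35. In CCR2pos cells it lay within 2-fold for all 49 and within 1.5-fold for 40. The dissociation and stress response genes moved beside this comparison. In CCR2neg cells all 14 of them had a negative log2 fold change (median -0.28, 0 called by edgeR, 6 at an unadjusted p under 0.05), with summed levels of 12001 to 15452 CPM in mac-TFEB and 13148 to 17156 in CX3CR1-Cre, and their part in the members' values was not tested.

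**Figure D2:**
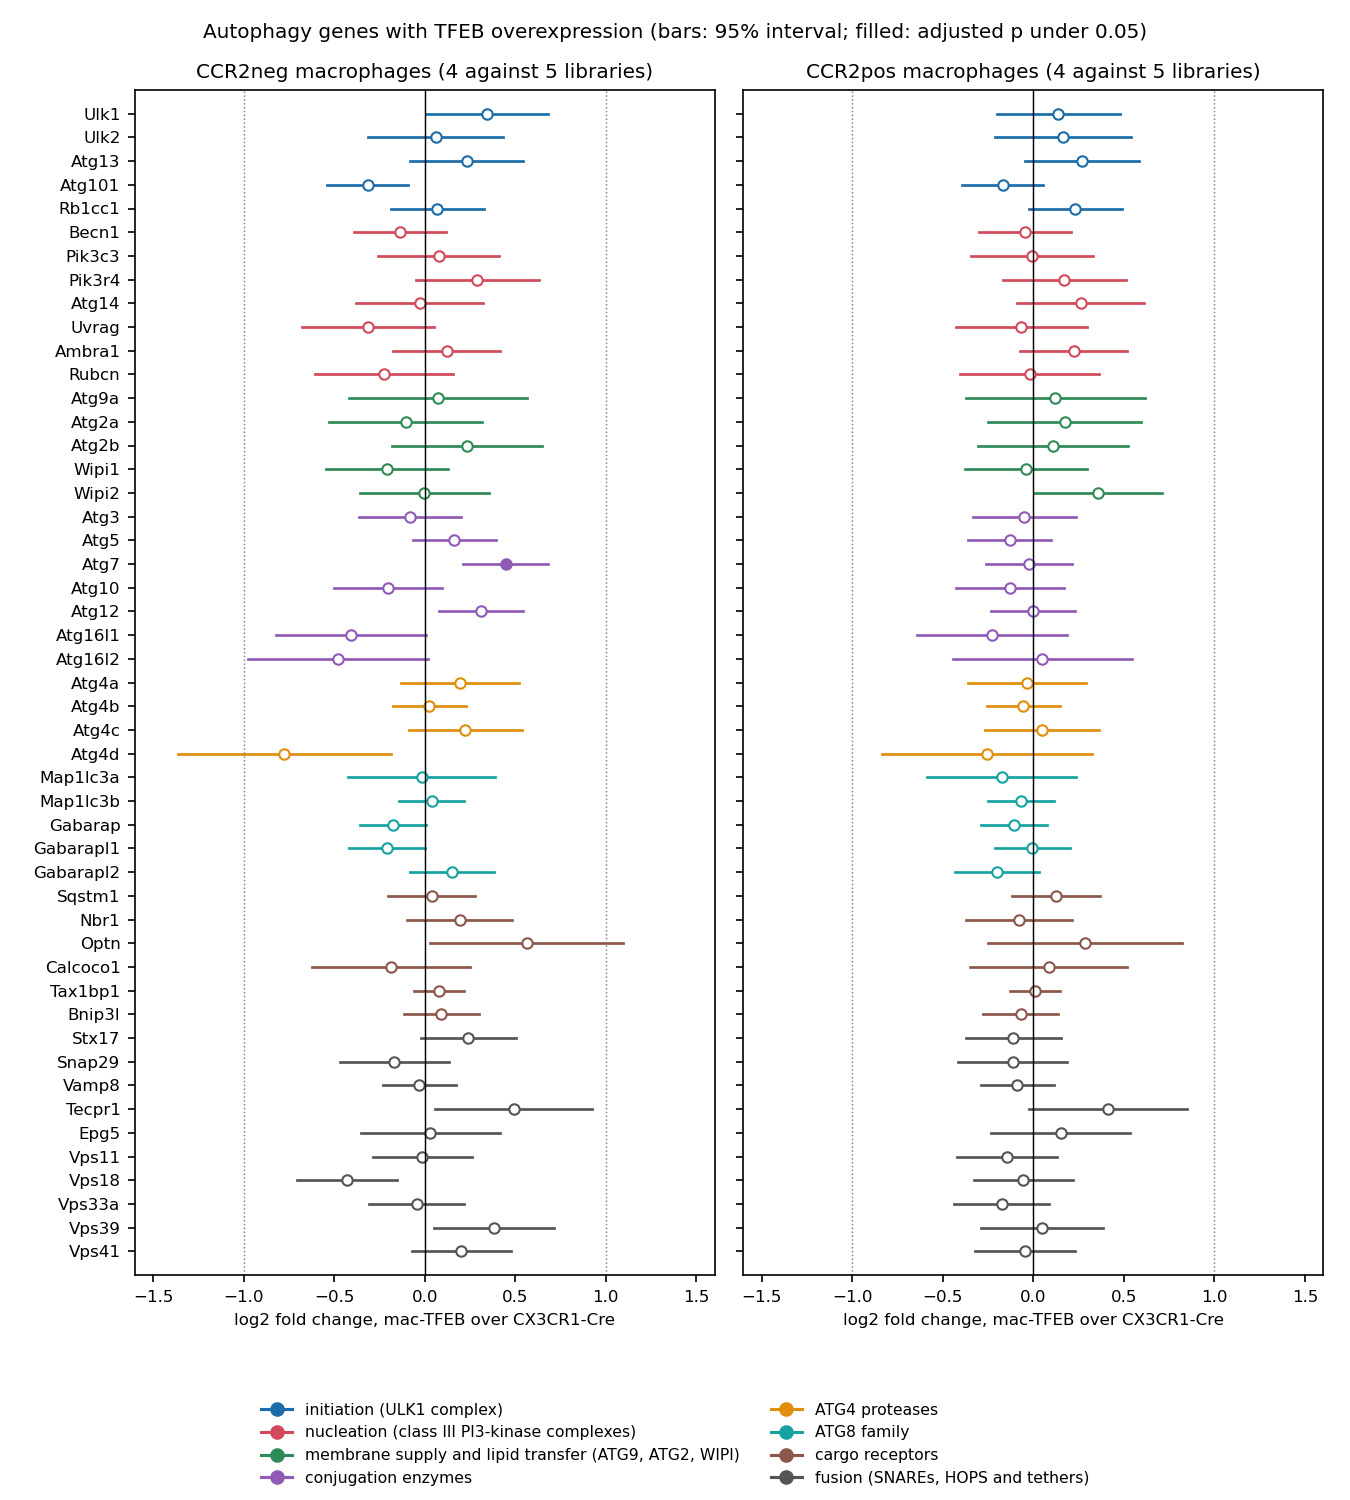
Log2 fold change (x axis) of each autophagy gene in mac-TFEB over CX3CR1-Cre cells, 4 against 5 libraries in each fraction, with its 95% interval, coloured by role. Atg7 in CCR2neg cells, at 0.45, is the 1 filled point, and the dotted lines mark a 2-fold change.

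Atg7 (chr6:114643097-114860614, GRCm38) stood at 145, 179, 162 and 159 CPM in CCR2neg mac-TFEB and at 126, 128, 110.5, 109.8 and 117 CPM in CCR2neg CX3CR1-Cre libraries. The groups did not overlap, and the log2 fold change was 0.45 ± 0.12 (95% interval 0.21 to 0.68, adjusted p = 0.043). The Cre-neg libraries of this fraction held 120.5, 207, 147 and 161 CPM in TFEBTG and 139, 165, 143, 129.9 and 163 CPM in TFEBwt, so the CX3CR1-Cre group had the lowest mean of the 4 groups. The mac-TFEB libraries lay within the range of the TFEBTG Cre-neg libraries, while Tfeb was 8.90-fold higher in mac-TFEB. In CCR2pos cells the mac-TFEB libraries held 116, 137, 150.3 and 131 CPM and the CX3CR1-Cre libraries 131, 137, 164, 117 and 129, which overlapped (-0.02 ± 0.12). The call was lost in 6 of 9 fits that left out 1 library (mac-TFEB 2, 3 or 4, CX3CR1-Cre 3, 4 or 5), with adjusted p from 0.0307 to 0.146 over the 9. Without the 3 libraries that stand apart the value was 0.47 (adjusted p = 0.0479).

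Among the initiation genes none was called in either fraction. Ulk1, the kinase that starts autophagosome formation, stood at 26.6, 15.7, 20.8 and 18.8 CPM in CCR2neg mac-TFEB and 14.2, 14.5, 23.4, 15.5 and 12.9 in CX3CR1-Cre libraries. These overlapped, through CX3CR1-Cre library 3, and the log2 fold change was 0.34 ± 0.17 (adjusted p = 0.327) in CCR2neg and 0.14 ± 0.17 in CCR2pos cells. Atg101, which stabilises ATG13 in the complex, had -0.32 ± 0.11 (unadjusted p = 0.00736, adjusted p = 0.16) in CCR2neg and -0.17 ± 0.11 in CCR2pos cells. The other three, the related kinase Ulk2, the adaptor Atg13 and the scaffold Rb1cc1 (FIP200), had 0.06, 0.23 and 0.07 in CCR2neg cells. Their CCR2pos values were 0.16, 0.27 and 0.23.

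None of the 7 nucleation genes was called or reached an unadjusted p under 0.05 in either TFEB comparison. Becn1, the scaffold of the PI3-kinase complexes, stood at 49.8, 45.2, 38.5 and 39.7 CPM in CCR2neg mac-TFEB and 41.6, 48.7, 49.5, 48.1 and 50.3 in CX3CR1-Cre libraries, with -0.14 ± 0.13 in CCR2neg and -0.04 ± 0.13 in CCR2pos cells. The groups overlapped, and 43.9% of the exon length of Becn1 is shared with Cntd1 on the opposite strand, whose reads cannot be told apart in libraries without strand information. The catalytic subunit Pik3c3 (VPS34) had 0.08 ± 0.16 and its regulatory subunit Pik3r4 0.29 ± 0.17 in CCR2neg cells. Atg14, which directs the complex to autophagy, had -0.03 ± 0.17, and Uvrag, its counterpart in endosomal complexes, -0.31 ± 0.18. The BECN1 partner Ambra1 had 0.12 ± 0.15 and the inhibitor Rubcn -0.23 ± 0.19. Over the 7 the CCR2pos values ran from -0.07 to 0.26.

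Genes of membrane supply and lipid transfer were not called either. Wipi1, which reads the PI3-kinase's lipid product, stood at 7.44, 10.0, 6.87 and 8.65 CPM in CCR2neg mac-TFEB and 8.36, 11.2, 9.33, 11 and 7.73 in CX3CR1-Cre libraries (-0.21 ± 0.17, CCR2pos -0.04 ± 0.17). Its groups overlapped. Wipi2, which recruits ATG16L1, was the 1 member with an unadjusted p under 0.05 in CCR2pos cells (0.36 ± 0.17, adjusted p = 1). In CCR2neg cells the scramblase Atg9a had 0.07 ± 0.24 and the lipid transfer proteins Atg2a and Atg2b -0.11 ± 0.21 and 0.23 ± 0.20.

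Of the other conjugation enzymes, Atg12, the ubiquitin-like partner of ATG5, had 0.31 ± 0.11 in CCR2neg cells (unadjusted p = 0.00964, adjusted p = 0.178) and 0.00089 ± 0.11 in CCR2pos cells. Atg5, which together with ATG12 and ATG16L1 forms the ligase for ATG8 proteins, stood at 83, 107, 106 and 125 CPM in CCR2neg mac-TFEB and 97.4, 101, 78.5, 99.7 and 94.6 in CX3CR1-Cre libraries. The groups overlapped, with 0.16 ± 0.11 (95% interval -0.07 to 0.39) in CCR2neg and -0.13 ± 0.11 (-0.36 to 0.10) in CCR2pos cells. Atg16l1, which places the ligase on the membrane, did not overlap between the CCR2neg groups and was lower in mac-TFEB, but was not called (-0.41 ± 0.20, adjusted p = 0.352). Its paralog Atg16l2 had -0.48 ± 0.24, the E2-like enzyme Atg3 -0.08 ± 0.14 and the E2-like enzyme Atg10 -0.20 ± 0.15.

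The ATG4 proteases prime ATG8 proteins and release them from membranes. In CCR2neg cells Atg4a, Atg4b and Atg4c had 0.19 ± 0.16, 0.02 ± 0.10 and 0.22 ± 0.15. Atg4d had -0.78 ± 0.29 (unadjusted p = 0.0114, adjusted p = 0.188) and -0.25 ± 0.28 in CCR2pos cells.

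No ATG8 family gene was called. Map1lc3b stood at 516, 571, 529 and 566 CPM in CCR2neg mac-TFEB and 529.8, 547, 454, 579 and 546 in CX3CR1-Cre libraries, with 0.04 ± 0.09 (95% interval -0.14 to 0.22) and, in CCR2pos cells, -0.07 ± 0.09 (-0.25 to 0.11). Gabarap stood at 480.3, 509, 556 and 588 and 577, 621, 608, 588 and 618 CPM in the same CCR2neg groups, with -0.18 ± 0.09 and, in CCR2pos cells, -0.11 ± 0.09. Both genes overlapped between the groups. Gabarapl1 did not overlap and was lower in CCR2neg mac-TFEB, at -0.21 ± 0.10 (adjusted p = 0.341), and 28.3% of its exon length lies opposite another gene of the table. The remaining ATG8 genes Gabarapl2 and Map1lc3a had 0.15 ± 0.11 and -0.02 ± 0.20. As close paralogs, the ATG8 genes may share reads.

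Cargo receptors were not called. Sqstm1 stood at 632, 483, 532 and 533 CPM in CCR2neg mac-TFEB and 491, 491, 575, 503 and 595 in CX3CR1-Cre libraries. These overlapped, with 0.04 ± 0.12 (95% interval -0.20 to 0.28), and the CCR2pos value was 0.13 ± 0.12 (-0.11 to 0.37). Optn, a receptor for bacteria and damaged mitochondria, had the highest value of the 49 in CCR2neg cells and a wide interval (0.56 ± 0.26, 95% interval 0.03 to 1.09, adjusted p = 0.31). The aggregate receptor Nbr1, the ER receptor Calcoco1, the receptor Tax1bp1 and the mitophagy receptor Bnip3l had 0.19, -0.19, 0.08 and 0.09. Tax1bp1 varied least of all members, 1.38-fold between its lowest and highest library.

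No fusion gene was called, though Vps18 and Tecpr1 lay at opposite ends. Vps18, a core HOPS subunit, stood at 59.3, 61.4, 61.5 and 41 CPM in CCR2neg mac-TFEB and 75, 62.6, 77.2, 78.9 and 82.2 in CX3CR1-Cre libraries (-0.43 ± 0.14, adjusted p = 0.114). The groups did not overlap, and mac-TFEB was the lower one. Tecpr1, a lysosomal tether that binds the ATG12-ATG5 conjugate, stood at 43.8, 36.9, 34.3 and 29.8 CPM in CCR2neg mac-TFEB and 20.2, 28.3, 38, 20.8 and 21.2 in CX3CR1-Cre libraries (0.49 ± 0.21, adjusted p = 0.268). It overlapped only through CX3CR1-Cre library 3, and its CCR2pos value was 0.41 ± 0.21. Among the HOPS subunits Vps39 had 0.38 ± 0.16, Vps41 0.20 ± 0.14, Vps11 -0.01 ± 0.13 and Vps33a -0.04 ± 0.13. The autophagosomal SNARE Stx17 had 0.24, its partners Snap29 and Vamp8 -0.17 and -0.03, and Epg5 0.03. In all, 4 of 49 members (8.16%) did not overlap between the CCR2neg groups, Atg7, Vps18, Atg16l1 and Gabarapl1, against 6.01% of all genes. In CCR2pos cells it was 0 of 49 against 2.04%.

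The cassette was also compared in cells labelled Cre-neg, TFEBTG against TFEBwt. These groups differed in Tfeb itself, which was 3.15-fold higher in TFEBTG in CCR2neg (adjusted p = 0.0697) and 6.40-fold higher in CCR2pos cells (adjusted p = 0.00249), so this is no comparison of the cassette at an equal level of Tfeb. In CCR2neg cells Atg4d fell and no other member was called, against 0.406% of all genes, with 7 members at an unadjusted p under 0.05 (14.3%, all genes 13.1%). In CCR2pos cells edgeR called 0 members against 0.0313% of all genes, with 1 (Atg13) at an unadjusted p under 0.05 (all genes 3.07%), and DESeq2 and limma-voom called 0. Median log2 fold changes over the members were -0.01 and 0.02. Atg4d (chr9:21265293-21277772) stood at 1.9, 3.6, 3.999 and 3.14 CPM in CCR2neg TFEBTG Cre-neg and 10.4, 8.13, 12.1, 5.79 and 9.3 in TFEBwt Cre-neg libraries. Every TFEBTG library lay below every TFEBwt library (-1.53 ± 0.30, adjusted p = 0.0207).

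In the Cre cells, Atg4d stood at 4.2, 5.74, 3.4 and 4.41 CPM in CCR2neg mac-TFEB and 8.996, 7.97, 5.51, 5.64 and 9.85 in CX3CR1-Cre libraries, with overlap. In CCR2pos Cre-neg cells Atg4d stood at 11.8, 9.61, 5.01 and 8.64 CPM in TFEBTG and 7.39, 7.31, 9.17, 5.64 and 5.97 in TFEBwt (0.30 ± 0.28). Atg4d varied most of all members, 8.06-fold between its lowest and highest library, and 19.3% of its exon length (1405 bases) lies opposite Kri1, whose reads cannot be told apart from it there. Kri1, named after its values were seen, had 0.01 ± 0.22 in the same comparison. The Atg4d call was lost without TFEBwt Cre-neg library 3 (adjusted p = 0.0708), in a fit of the libraries compared alone (0.427) and with limma-voom (0.0559). Without the libraries that stand apart it was -1.33 (adjusted p = 0.0191).

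Other members near the threshold in this CCR2neg comparison were Rb1cc1 (0.47 ± 0.13, adjusted p = 0.0762) and Wipi1 (-0.56 ± 0.17, adjusted p = 0.1). Wipi1 stood at 8.33, 8.87, 8.05 and 8.15 CPM in TFEBTG and 13.6, 10.2, 15.5, 11.6 and 10.4 in TFEBwt Cre-neg libraries, without overlap. With Atg4d it made 2 of 49 members that did not overlap (4.08%, all genes 2.77%). Ulk2 (0.47 ± 0.18), Vps18 (-0.35 ± 0.14), Atg101 (-0.27 ± 0.11) and Calcoco1 (-0.51 ± 0.22) had unadjusted p-values under 0.05.

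The genotype contrast in Cre cells was then set against that in Cre-neg cells, as the difference between them. It takes off whatever moved with the higher Tfeb of the TFEBTG Cre-neg cells as well. No member was called by edgeR in either fraction (0% of all genes), with 2 and 1 at an unadjusted p under 0.05 in CCR2neg and CCR2pos cells (all genes 3.88% and 1.13%), and DESeq2 and limma-voom called 0. The 2 were Atg7 (0.34 ± 0.17, unadjusted p = 0.0453, adjusted p = 0.999) and Rb1cc1 (-0.41 ± 0.18), and the 1 was Gabarapl2 (-0.36 ± 0.16). For Ulk1 the difference was 0.33 ± 0.23 in CCR2neg and -0.02 ± 0.23 in CCR2pos cells. Becn1 had 0.04 ± 0.18 and -0.01 ± 0.18, Atg5 0.08 ± 0.16 and -0.11 ± 0.16, and Atg7 -0.06 ± 0.17 in CCR2pos cells. The ATG8 genes had -0.09 ± 0.13 and -0.09 ± 0.13 for Map1lc3b and -0.15 ± 0.13 and -0.01 ± 0.13 for Gabarap. Sqstm1 had 0.09 ± 0.17 and 0.08 ± 0.17, and Wipi1 0.35 ± 0.23 and 0.11 ± 0.23.

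Whether the TFEB effect differed between fractions was tested as CCR2pos minus CCR2neg. EdgeR called 0 members (0% of all genes), with Atg7 and Gabarapl2 the 2 at an unadjusted p under 0.05 (all genes 3.95%), and DESeq2 and limma-voom called 0. Atg7 differed by -0.47 ± 0.17 (unadjusted p = 0.00773, adjusted p = 1) and Gabarapl2 by -0.35 ± 0.16, so the Atg7 call in CCR2neg cells is not shown to be particular to that fraction. Ulk1, Becn1 and Atg5 differed by -0.21 ± 0.23, 0.09 ± 0.18 and -0.29 ± 0.16. For Map1lc3b, Gabarap, Sqstm1 and Wipi1 the differences were -0.11 ± 0.13, 0.07 ± 0.13, 0.09 ± 0.17 and 0.17 ± 0.23.

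Between the CCR2 fractions, members rose in 1 of 4 settings, the TFEBTG Cre-neg cells. There Atg4d (1.46 ± 0.31, adjusted p = 0.00492) and Vps18 (0.66 ± 0.14, adjusted p = 0.00588) were higher in CCR2pos cells, 2 of 49 members against 3.26% of all genes, with 7 at an unadjusted p under 0.05 (14.3%, all genes 15.9%). Vps18 (chr2:119288740-119298453) stood at 83.2, 79.6, 68.1 and 62.6 CPM in CCR2pos and 49.1, 47, 46.7 and 43.2 in CCR2neg libraries, and neither gene overlapped (2 of 49, 4.08%, all genes 7.92%). Without the libraries that stand apart Atg4d (1.26, adjusted p = 0.0214) and Vps18 (0.66, adjusted p = 0.0156) were still called, with Atg101 (0.42, adjusted p = 0.0419) as the third. The same CCR2neg TFEBTG Cre-neg libraries were the low group of Atg4d in the cassette comparison, so the results share those libraries. With the label number as a block 4 members were called against 9.60% of all genes, Atg101 (0.36, adjusted p = 0.0135) and Calcoco1 (0.44, adjusted p = 0.0311) being added.

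In the other settings edgeR, DESeq2 and limma-voom each called 0 members without the block. With it, Bnip3l was called in TFEBwt Cre-neg cells. The shares of all genes called by edgeR were 0.797% in CX3CR1-Cre, 0.539% in mac-TFEB and 2.35% in TFEBwt Cre-neg cells, and 4, 5 and 4 members had an unadjusted p under 0.05 (all genes 11.0%, 8.46% and 11.2%). Map1lc3b had 0.22 ± 0.08 in CX3CR1-Cre cells (adjusted p = 0.287), Vps18 0.33 ± 0.14 in mac-TFEB and 0.31 ± 0.13 in TFEBwt Cre-neg cells, and Bnip3l -0.27 ± 0.10 in the last. Vps18 was thus positive in these settings but for CX3CR1-Cre (-0.04 ± 0.13). Vps11 was the 1 member without overlap in mac-TFEB cells, lower in CCR2pos (5.96% of all genes).

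Between Cre and Cre-neg cells of a genotype, 1 member fell in the fit without a block, Atg4c in TFEBwt CCR2neg cells. Of all genes 2.60% were called there, and 5 members and 13.1% of all genes had an unadjusted p under 0.05. Atg4c (chr4:99193934-99259787) stood at 32.8, 29.5, 23.9, 29.2 and 24.9 CPM in CX3CR1-Cre and 40.5, 47.7, 40.1, 38.8 and 34.1 in Cre-neg libraries, without overlap (-0.52 ± 0.15, adjusted p = 0.0442). Leaving out 1 library lost the call in 8 of 10 fits (adjusted p of 0.0372 to 0.149), and without the libraries that stand apart the value was -0.48 (adjusted p = 0.0499). Atg7, which also did not overlap, had -0.32 ± 0.11 (adjusted p = 0.129). With the label number as a block it was called too (-0.32, adjusted p = 0.0163), against 7.54% of all genes. The CX3CR1-Cre libraries of this comparison are those of the TFEB comparison. Non-overlapping members were 2 of 49 (4.08%, all genes 3.87%). Cx3cr1, whose promoter drove Cre, was itself higher in these CX3CR1-Cre than Cre-neg libraries (1.02 ± 0.19, adjusted p = 0.00186). Its means were 429.8 and 212.5 CPM. Ccr2 was not called (-0.65 ± 0.32, adjusted p = 0.387). Elsewhere Cx3cr1 was not called, at 0.62 ± 0.19 in TFEBwt CCR2pos, 0.58 ± 0.21 in TFEBTG CCR2neg and 0.14 ± 0.21 in TFEBTG CCR2pos cells. Whether Cre and Cre-neg cells were different populations was not tested.

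In the other settings edgeR, DESeq2 and limma-voom called 0 members without the block. The shares of all genes called by edgeR were 0.00782% in TFEBwt CCR2pos, 0.156% in TFEBTG CCR2neg and 0.0156% in TFEBTG CCR2pos cells. Members with an unadjusted p under 0.05 were 1, 5 and 2 (all genes 5.64%, 7.66% and 2.08%). Tecpr1 (chr5:144194442-144223615) stood at 43.8, 36.9, 34.3 and 29.8 CPM in CCR2neg mac-TFEB and 24.8, 23.5, 22.2 and 21.8 in CCR2neg TFEBTG Cre-neg libraries, without overlap (1 of 49, 2.04%, all genes 3.56%). Its log2 fold change was 0.65 ± 0.23 (adjusted p = 0.351), and 0.53 ± 0.23 in CCR2pos cells. With the block Tecpr1 (0.63, adjusted p = 0.0257) and Calcoco1 (0.52, adjusted p = 0.0275) were called in CCR2neg cells, against 2.35% of all genes. Gabarapl2 had -0.29 ± 0.12 in TFEBTG CCR2pos cells and was the 1 member there without overlap (all genes 1.97%), and Stx17 had 0.26 ± 0.12 in TFEBwt CCR2pos cells.

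**Figure D3:**
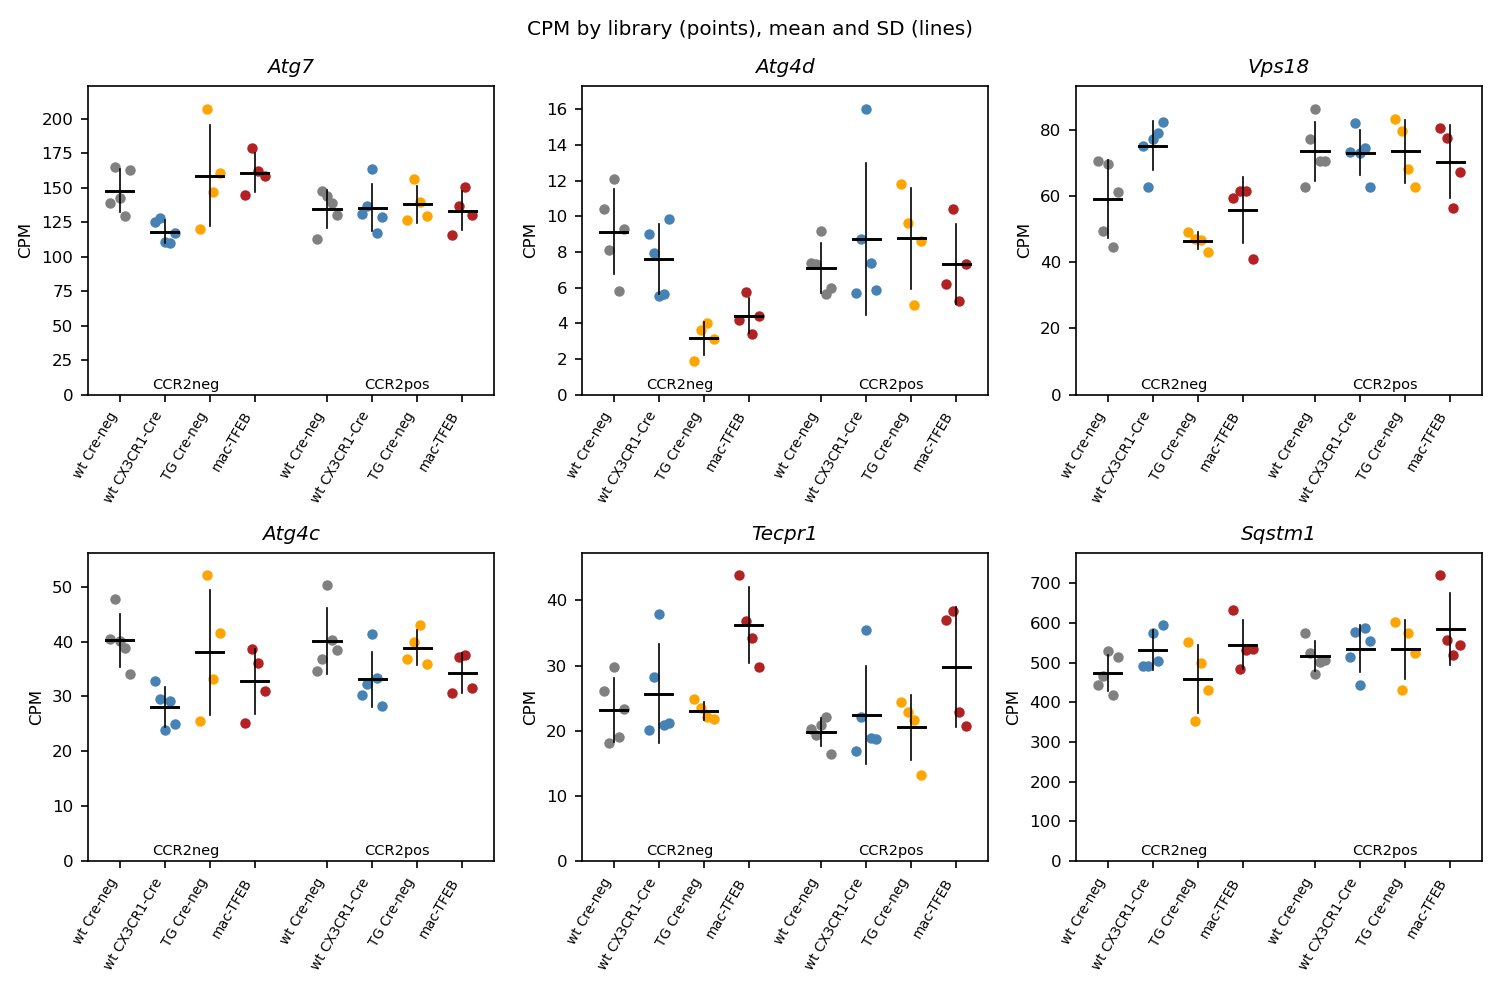
CPM (y axis from 0) of 6 autophagy genes in the 8 groups, with each library as a point, the mean as a horizontal and the SD as a vertical line. Atg4d in CCR2neg TFEBTG Cre-neg cells lies below every TFEBwt Cre-neg library, and Sqstm1 overlaps in all groups.

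**Figure D4:**
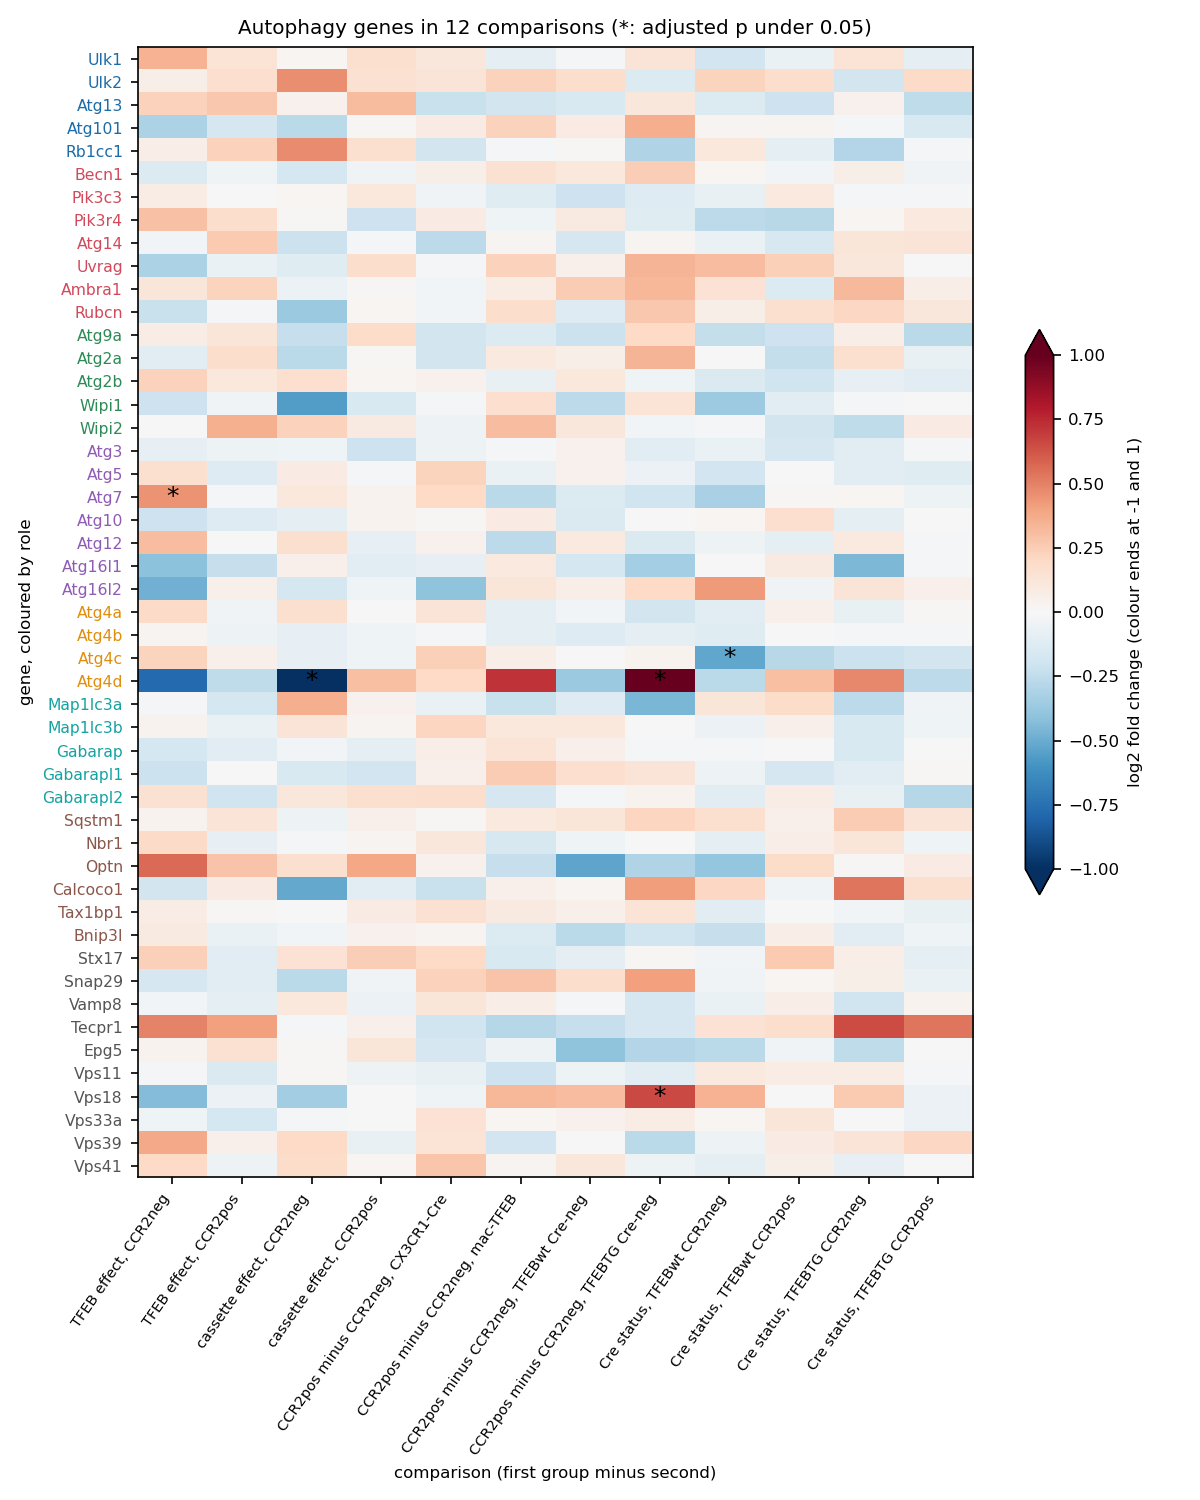
Log2 fold change of the 49 autophagy genes (rows, coloured by role) in 12 comparisons (columns), with asterisks for an adjusted p under 0.05. The asterisks are at Atg7 with TFEB in CCR2neg cells, Atg4d with the cassette in CCR2neg cells, Atg4d and Vps18 between fractions of TFEBTG Cre-neg cells, and Atg4c between Cre and Cre-neg TFEBwt CCR2neg cells. Cassette effect stands for TFEBTG minus TFEBwt in Cre-neg cells.

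Related genes that are not members gave few calls. Of 16 other autophagosome formation genes, 15 other receptors, 16 other fusion genes, 14 genes of the upstream AMPK and mTORC1 pathways and 6 genes of LC3-associated phagocytosis that were measured, edgeR called 0 with TFEB in either fraction. At an unadjusted p under 0.05 these lists held 5, 2, 3, 5 and 0 genes in CCR2neg and 2, 0, 1, 0 and 0 in CCR2pos cells, where 14.6% and 4.62% of all genes did so. In CCR2neg cells that is 31.2% of the formation genes and 35.7% of the AMPK and mTORC1 genes. The other lists had 2 of 15 receptors, 3 of 16 fusion genes and 0 of 6 genes of LC3-associated phagocytosis. These counts join higher and lower genes. In the cassette comparison in CCR2neg cells 2 of the 14 AMPK and mTORC1 genes fell (14.3%, all genes 0.406%). They were Prkag2, a subunit of the energy sensor AMPK (-0.81 ± 0.17, adjusted p = 0.0254), and Rheb, the small GTPase that activates mTORC1 (-0.56 ± 0.12, adjusted p = 0.0297). Rheb was higher in CCR2pos than in CCR2neg TFEBTG Cre-neg cells (0.64 ± 0.13, adjusted p = 0.00222). The same CCR2neg libraries are the low group in both Rheb results, so these share those libraries. Nrbf2, a PI3-kinase complex subunit (0.75 ± 0.20), and Wdr45b, a WIPI protein (0.37 ± 0.10), were also higher in CCR2pos in that fraction comparison (all genes 3.26%). The mitophagy receptor Bnip3, the 1 gene of the 15 receptors called there, was lower in Cre than in Cre-neg TFEBwt CCR2neg cells (all genes 2.60%, -0.66 ± 0.16, adjusted p = 0.0144).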

How the data were processed

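Polyadenylated RNA of 36 libraries of sorted cardiac macrophages was sequenced as single reads of 50 bases without strand information, after amplification for 12 cycles, per the labels' protocols. The authors deposited whole-number read counts for 12795 genes in 1 table named as filtered, with the filter itself not given. The submitters' processing notes name TopHat2 2.0.10, Bowtie2, HTSeq, DESeq and edgeR. Columns were matched to samples by name.

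From these counts, CPM (TMM-normalized) and fold changes were computed here. Differences were tested in R 4.3.3 by quasi-likelihood with edgeR 4.0.16, in 1 fit of 8 group means over 36 libraries and with Benjamini-Hochberg adjustment over 12795 genes. This fit had no block for the label number, although same-numbered libraries of a genotype deviated together. The expression filter (minimum count 10) removed none. Standard errors were derived from the F statistic of each log2 fold change, and 95% intervals are from the same fit. The common dispersion was 0.0943, and counting error was not separated from the spread between libraries. The script was tested on simulated counts. Gene positions and exon lengths are from GENCODE vM21 (GRCm38) and promoter windows from RefSeq (GRCm38.p6).

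The members, lists and tests were chosen with earlier results of these data known. Every member is named with its role. Members called in a TFEB or cassette comparison are given per library, Ulk1, Becn1, Atg5, Atg7, Map1lc3b, Gabarap, Sqstm1 and Wipi1 in every TFEB comparison, and in the fraction and Cre comparisons up to 5 called members each way. Of the other pathway genes up to 5 called ones per list are named.

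Label numbers pair libraries only within a genotype. Same-numbered libraries deviated from their group means together, with the smallest correlation of a pair between 0.0958 and 0.383 over the 12 kinds of pair, 11 of which exceeded 0.1. Across genotypes the mean correlation was -0.116. The number was therefore used as a block within genotypes. Between fractions of TFEBwt Cre-neg cells the smallest correlation of a pair was under 0.1, so the block is given there with this limit. The mean there was 0.329 for same-numbered and -0.0809 for other pairs. As alternatives served size factors of DESeq2 1.42.0 and its Wald test, a filter of 1 CPM in 9 libraries and no filter, limma-voom (limma 3.58.1) with quality weights, a fit of the compared libraries alone, a term for Xist, blocks, each library left out and, added after seeing the data, the 3 libraries that stand apart left out.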

Additional observations from a re-analysis of the deposited data

Results flagged for a closer look

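Single libraries lay far from the others of their group, by the gap to the nearest library over the group's range. Of 96 groups of the most closely described genes and the members' sum 9 did so, and of 392 groups over all members 22 did. Chance gives about 1 in 20 groups.

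Atg5, a subunit of the ATG8 ligase, stood apart in 3 groups. It was low at 78.5 CPM in CCR2neg CX3CR1-Cre library 3 (others 94.6 to 101), high at 124 CPM in CCR2neg TFEBwt Cre-neg library 2 (others 101 to 107) and low at 97.6 CPM in CCR2pos TFEBwt Cre-neg library 1 (others 111 to 116). Becn1, the PI3-kinase scaffold, also stood apart in 3, at 37.5 CPM in CCR2pos mac-TFEB library 3 (others 50.6 to 52.5), 41.6 CPM in CCR2neg CX3CR1-Cre library 1 (others 48.1 to 50.3) and 60.9 CPM in CCR2pos CX3CR1-Cre library 3 (others 44.3 to 48.7). The kinase gene Ulk1 was high at 23.4 CPM in CCR2neg CX3CR1-Cre library 3 (others 12.9 to 15.5). The HOPS gene Vps18 was low at 41.0 CPM in CCR2neg mac-TFEB library 4 (others 59.3 to 61.5). The summed level of the 49 members was high at 4452 CPM in CCR2pos mac-TFEB library 1 (others 4191 to 4222).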

How the results depend on the processing

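The members' median log2 fold changes lay near 0, and 11 of the 15 changed sign under at least 1 alternative, by less than the spread between libraries. With TFEB in CCR2pos cells (-0.02) it ran from -0.04 to 0.02, and in the cassette comparison from -0.04 to 0.07 in CCR2neg (-0.01) and from -0.03 to 0.05 in CCR2pos cells (0.02). The 4 that kept their sign were those with TFEB and for the difference between the genotype contrasts in CCR2neg cells, between fractions of CX3CR1-Cre cells, and between Cre and Cre-neg TFEBwt CCR2neg cells. With TFEB in CCR2neg cells, where 1 member was called, a term for Xist gave 3 (Atg101, Atg7, Vps18), limma-voom with quality weights 9, a fit of the compared libraries alone 0, and leaving out 1 library 0 to 1. With the cassette in CCR2neg cells, where 1 was called, the term for Xist gave 3 (Atg4d, Calcoco1, Rb1cc1), DESeq2 2 (Atg4d, Rb1cc1), limma-voom 0, the compared libraries alone 0, and leaving out 1 library 0 to 1. Between fractions of TFEBTG Cre-neg cells, where 2 were called, the compared libraries alone gave 0 and leaving out 1 library 2 to 4. The 4 were Atg101, Atg4d, Becn1 and Vps18, without CCR2neg Cre-neg library 1. Between Cre and Cre-neg TFEBwt CCR2neg cells, where 1 was called, leaving out 1 library gave 0 to 1. The compared libraries alone are fewer samples, and the cause of the other changes was not tested.

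With the label number as a replicate block within genotypes, counts of called members moved from 2 to 4 between fractions of TFEBTG Cre-neg cells, from 1 to 2 between Cre and Cre-neg TFEBwt CCR2neg cells and from 0 to 2 between those of TFEBTG. The block changed no other call, except that Bnip3l was called (1 member, -0.27, adjusted p = 0.0307) between fractions of TFEBwt Cre-neg cells. There the smallest correlation of a same-numbered pair lay under 0.1. A block of numbers shared across genotypes, which do not pair there, gave 3 members with the cassette in CCR2neg cells. Depth limits Atg4d most among the called members, since its libraries held 29 to 328 reads of it.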

Other observations

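Calcoco1, an ER cargo receptor, split the TFEBTG libraries by label number. It stood at 78.8, 76.2, 41.8 and 39.2 CPM in CCR2neg mac-TFEB libraries 1 to 4, 53.4, 49.6, 32.1 and 27.9 in CCR2neg Cre-neg, 75, 72.9, 44.2 and 51.5 in CCR2pos mac-TFEB and 70.8, 61.4, 45.3 and 40.2 in CCR2pos Cre-neg libraries. In each of these 4 groups libraries 1 and 2 lay above libraries 3 and 4. The libraries numbered 1 and 2 had Xist at or below 10 CPM and those numbered 3 and 4 above it. In TFEBwt only the libraries numbered 1 had Xist at or below 10 CPM, and Calcoco1 showed no like split by Xist over the TFEBwt groups. Library 1 was the highest of CCR2neg Cre-neg at 75.2 CPM and the lowest of CCR2pos Cre-neg at 57 CPM. In CX3CR1-Cre it lay within the range of the others, at 69.4 (CCR2neg) and 53.5 CPM (CCR2pos).

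The tether Tecpr1 showed a like split in the same 4 groups beside the level of Tfeb itself. In CCR2pos mac-TFEB libraries 1 to 4 Tfeb stood at 225, 279.8, 60.4 and 68.2 CPM and Tecpr1 at 37, 38.3, 22.9 and 20.7 CPM. In CCR2neg mac-TFEB libraries they stood at 335, 249.98, 98.1 and 67.4 and 43.8, 36.9, 34.3 and 29.8 CPM. In CCR2neg Cre-neg libraries Tfeb stood at 36.5, 18.6, 16.9 and 12.4 CPM and Tecpr1 at 24.8, 23.5, 22.2 and 21.8 CPM, and in CCR2pos Cre-neg libraries they stood at 51, 50.5, 34.6 and 19.1 and 24.3, 22.8, 21.7 and 13.2 CPM. The library order is the same for both genes in these groups except CCR2pos mac-TFEB, and in each of the 4 groups the pair with more Tfeb is also the pair with Xist at or below 10 CPM, so Tfeb level, Xist and label number cannot be told apart here. In TFEBwt cells Tecpr1 stood at 38 CPM in CCR2neg and 35.4 CPM in CCR2pos CX3CR1-Cre library 3. Tfeb stood there at 8.86 and 5.06 CPM, with Xist above 10 CPM. The TFEBwt libraries numbered 1, with Xist at or below 10 CPM, held 26 and 20.2 CPM of Tecpr1 in CCR2neg Cre-neg and CX3CR1-Cre. In CCR2pos they held 20.2 and 16.8 CPM. The pattern in TFEBTG was noticed in these values and was not tested.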
